A study of Mus musculus with 4 samples.

Results

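The proteasome genes of mouse muscle stem cells (MuSCs) were described across the states that these cells take after isolation. A gene was a member where its symbol began with Psm, a letter from a to g and a number, without the pseudogene mark "-ps", which gave 50 of the 32285 genes in the files. Of these, 31 encode the constitutive subunits of the 26S proteasome and are called the standard subunits here. The other members were 3 immunoproteasome subunits, 5 activators or inhibitors of the 20S core, 7 assembly chaperones, 2 tissue-restricted subunits and 2 further matches, the meiotic recombination factor *Psmc3ip* and the *Psme2*-like gene *Psme2b*.

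Cells were profiled by 10x single cell RNA-sequencing in 4 samples, 2 of them control and 2 α-cdKO. Both genotypes carried a *Pax7* CreERT2 allele and a Rosa26 tdTomato reporter and received tamoxifen 14 days before isolation. The α-cdKO mice were in addition homozygous for floxed *Ctnna1* and *Ctnna3*, the genes of αE- and αT-catenin, whereas the controls had no floxed allele. Each sample was a pool of sorted tdTomato+ cells from 2 C57BL/6J mice of 3 to 4 months, so the samples do not give the spread between single mice, and Cre acts only where *Pax7* drives it.

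The 26S proteasome degrades proteins tagged with ubiquitin. Its 20S core is a stack of α and β rings that holds the proteolytic sites on *Psmb5*, *Psmb6* and *Psmb7*, and its 19S cap, built from ATPases and non-ATPase subunits, receives, unfolds and deubiquitinates substrates. Interferon and immune cells replace the 3 catalytic subunits with *Psmb8*, *Psmb9* and *Psmb10*, and proteolysis by the proteasome is known to be needed as muscle precursors leave quiescence and differentiate.

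After the filter on cells, 28790 cells were kept, which were 84.7% to 96.8% of the barcodes of a sample, with median depths between 6452.5 and 8075 UMIs (unique molecular identifiers, each a captured RNA molecule) per cell, and 101 barcodes occurred in more than 1 sample. Cells were assigned to states by UMIs of marker lists that held no proteasome gene, at 2000 UMIs per cell, after cells with markers of other types or of mature muscle had been set aside. Of those set aside, 4112 passed a gate on fibroblast genes, but they held *Pax7* at a mean of 106, *Myf5* at 252 and *Myod1* at 406 plain CPM, against 75.02, 269 and 614 in all MuSC cells, so the gate did not show them to be another cell type. Without that gate there were 402 cycling cells. The 206 cycling and 498 *Myog*-positive cells were gated first, then 4542 quiescent-like cells, and last 4172 chaperone-high and 3945 chemokine-high cells. Another 1517 cells were high in both of the last lists and 7956 in neither. These entered no state comparison and count only among all MuSC cells. Each sample gave between 16 and 134 cycling cells and between 41 and 229 *Myog*-positive cells. *Pax7* was highest in quiescent-like cells in each sample (109 to 191 plain CPM, UMIs of the gene scaled to a common total). It is a gene of the quiescence gate, so this follows from the gate and is no check on the state. The immediate early gene *Fos* was also highest there in each sample, between 1559 and 2773 plain CPM, and *Hspa1a* reached 5774 to 12558, so the name refers to the marker gate and these cells were not free of the isolation response. Quiescent-like cells carried a median of 6 chaperone UMIs of 2000 and chaperone-high cells 24, as the gate sets. Outside the gate, *Hspa1a* was at 4282 to 8230 plain CPM in chaperone-high cells, within or below its range in quiescent-like cells. *Hsp90aa1* was at 8743 to 10959 against 4675 to 7241, so the name chaperone-high refers to the genes of the gate. *Mymk*, a fusogen that the gates did not use, was at 306 to 531 in *Myog*-positive cells and at 5.49 or less in the other states. *Ctnna1* was at 89.9 and 74.6 plain CPM in control and at 77.2 and 73.1 in α-cdKO replicates 1 and 2 over all MuSC cells, but UMIs tag the 3′ end and the sources used here do not say whether that end is deleted, so this did not check the labels.

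Among the 5 states, *Myog*-positive cells, which have begun terminal differentiation, held the highest summed level of the 31 standard subunits, and quiescent-like cells the lowest. UMIs were summed per sample and state and scaled by edgeR's TMM normalization, which gives the CPM used from here on unless called plain. The sum in quiescent-like cells was 2688 and 2922 CPM in control replicates 1 and 2 and 3002 and 2941 CPM in α-cdKO replicates 1 and 2. In *Myog*-positive cells it was 4832, 5307, 4940 and 5280 CPM in the same order. The lowest *Myog*-positive value lay above every value of the other states, and the ratio to quiescent-like cells of the same sample was 1.76 ± 0.0794 (SD, n = 4). The ratio was 1.16 ± 0.0363 in chaperone-high, 1.30 ± 0.0604 in chemokine-high and 1.22 ± 0.0903 in cycling cells. The ratios of chemokine-high cells (1.25 to 1.39) lay above those of chaperone-high cells (1.11 to 1.20), and those of cycling cells (1.14 to 1.35) overlapped both. No test was run on the sums, and 2 of the 4 samples were α-cdKO.

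**Figure D1:**
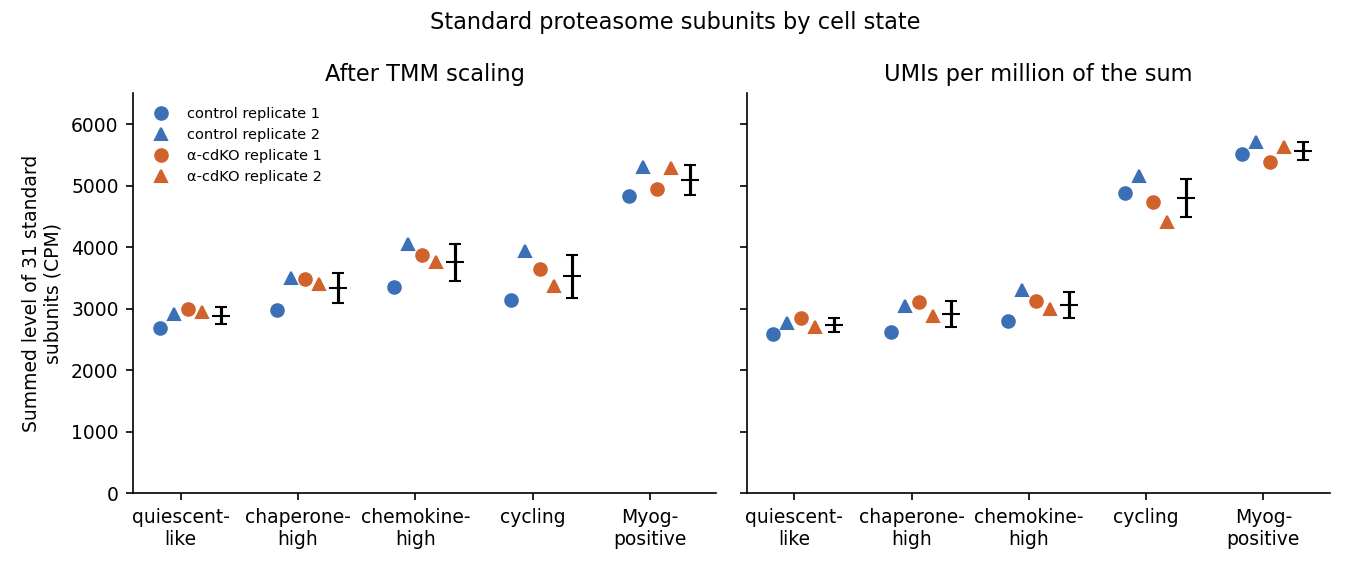
Summed level of the 31 standard subunits (CPM, linear axis from 0) by cell state, after TMM scaling on the left and as plain CPM on the right. Circles and triangles are replicates 1 and 2, blue is control and orange α-cdKO, and the bars give the mean and SD of 4 samples. Myog-positive cells lie between 4832 and 5307 CPM after TMM, and cycling cells move from between chaperone-high and Myog-positive cells on the right to the level of chemokine-high cells on the left.

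The scaling set part of these ratios. Without TMM, the ratio was 2.04 ± 0.107 in *Myog*-positive, 1.76 ± 0.133 in cycling, 1.12 ± 0.0506 in chemokine-high and 1.07 ± 0.0360 in chaperone-high cells. The mean plain CPM of the sum was 3057 in chemokine-high, 2910 in chaperone-high and 2727 in quiescent-like cells. It was 3195 in cells high in neither list and 2746 in cells high in both. A sum above that of quiescent-like cells was thus not particular to chemokine-high or chaperone-high cells. In the mature-muscle cells set aside the mean was 4989 plain CPM, against 5562 in *Myog*-positive and 4801 in cycling cells. The other groups set aside lay between 2212 and 3586. A high sum was thus not particular to *Myog*-positive cells. Over all 11767 genes tested, dropping TMM moved the median log2 fold over quiescent-like cells from −0.06 to 0.43 in cycling, from −0.10 to 0.10 in *Myog*-positive, from −0.07 to −0.28 in chemokine-high and from 0.00 to −0.11 in chaperone-high cells. The distance of the members' median from that of all genes hardly moved, from 0.95 to 0.96, 0.42 to 0.44, 0.29 to 0.29 and 0.17 to 0.17 in *Myog*-positive, cycling, chemokine-high and chaperone-high cells. Scaling shifts the genes of a comparison by nearly the same amount, so this distance could hardly move and is no check on the scaling. The difference between states was also seen per cell, though the states differed in depth. The median was 13743 UMIs in *Myog*-positive, 16031.5 in cycling and 6917 in quiescent-like cells. Standard subunits made up 0.398% to 0.477% of a cell's UMIs at the lower quartile of *Myog*-positive cells and 0.310% to 0.347% at the upper quartile of quiescent-like cells over the 4 samples, so these quartiles did not meet. The lower quartile of cycling cells, 0.339% to 0.423%, lay above the upper quartile of quiescent-like cells of the same sample in 4 of 4 samples. The medians of chaperone-high and quiescent-like cells lay close together, at 0.246% to 0.279% and 0.251% to 0.259%.

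Nearly every standard subunit was higher in *Myog*-positive than in quiescent-like cells. Of 50 members, 47 had enough UMIs to be tested, and *Psma8*, *Psmb11* and *Psme2b* did not. By edgeR's quasi-likelihood test at an adjusted p under 0.05, 37 were higher and 3 lower, where 25.9% of all genes were called higher and 31.4% lower. The members' median log2 fold was 0.85 and that of all genes −0.10. All 7 α ring, all 7 β ring and all 6 ATPase genes rose, as did 10 of 11 non-ATPase genes, with medians of 0.96, 0.85, 1.06 and 0.99. Without TMM the counts were 38 and 3, where 33.4% of all genes were higher and 2856 genes lower.

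Among the rising subunits, *Psmd6*, a scaffold of the 19S lid, was at 40.6, 50.2, 52.9 and 46.9 CPM in quiescent-like cells and at 135, 128, 124 and 128 CPM in *Myog*-positive cells. The groups did not overlap, and the log2 fold was 1.41 (standard error 0.10, adjusted p = 6.49e-13 from edgeR). *Psmc1*, an ATPase of the 19S base, went from 36.7, 40.1, 41.3 and 39.4 to 84.5, 101, 93.6 and 104 CPM. Every *Myog*-positive value was above every quiescent-like one, with a log2 fold of 1.28 (standard error 0.10). *Psmb5*, which carries the chymotrypsin-like site, went from 70.6, 75.4, 77.0 and 73.1 to 164, 163, 161 and 180 CPM, again far apart (log2 fold 1.17, standard error 0.08). *Psmb6*, which carries the caspase-like site, went from 145, 152, 151 and 159 to 284, 271, 254 and 295 CPM (log2 fold 0.85). The largest rise of all members was in *Psmd10*, also known as gankyrin, an assembly chaperone of the 19S base. It was at 6.67, 7.80, 8.90 and 7.90 CPM in quiescent-like cells and at 29.0, 31.6, 19.5 and 20.9 CPM in *Myog*-positive cells, again without overlap (log2 fold 1.58, standard error 0.19, adjusted p = 3.21e-08 from edgeR).

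The standard subunit that did not pass was *Psmd11*, a lid subunit whose level is known to set how much 26S proteasome is assembled in stem cells. It was at 139, 136, 136 and 143 CPM in quiescent-like and 147, 129, 130 and 131 CPM in *Myog*-positive cells, and the groups overlapped (log2 fold −0.07, standard error 0.09, adjusted p = 0.556 from edgeR). With quiescent-like cells gated from 5 UMIs the log2 fold was 0.29, and with clusters in place of gates 1.04, so the absence of a rise depended on how the cells were defined. The assembly chaperone *Psmg4* had a log2 fold of 0.01. The 3 members that fell were *Psmb8*, *Psmb9* and *Psme1*. *Psme1* encodes the α subunit of the PA28 activator, which interferon induces together with the immunoproteasome, and it fell from 63.4, 65.4, 60.8 and 58.8 to 35.9, 24.8, 27.0 and 32.7 CPM (log2 fold −1.06, standard error 0.11). Its partner *Psme2* rose, from 39.8, 43.5, 41.1 and 42.1 to 56.7, 51.7, 52.7 and 49.2 CPM (log2 fold 0.32), so the 2 genes of the heteromeric ring went in opposite directions.

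The 11 genes of the mature muscle list summed to between 2077 and 2968 plain CPM in *Myog*-positive cells and between 207 and 626 in quiescent-like cells, with none at 0, and the part of this in the result was not tested. The 8 endothelial genes summed to 8.51 or less and the 9 immune genes to 5.28 or less in *Myog*-positive cells, and *Cdh5*, *Kdr* and *Ptprc* were at 0. The 6 glial genes went the other way, with 13.2 to 30.4 in *Myog*-positive and 3.72 to 5.84 in quiescent-like cells. The 4 fibroblast genes summed to 91.2 to 293 and 395 to 602 in these states.

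**Figure D2:**
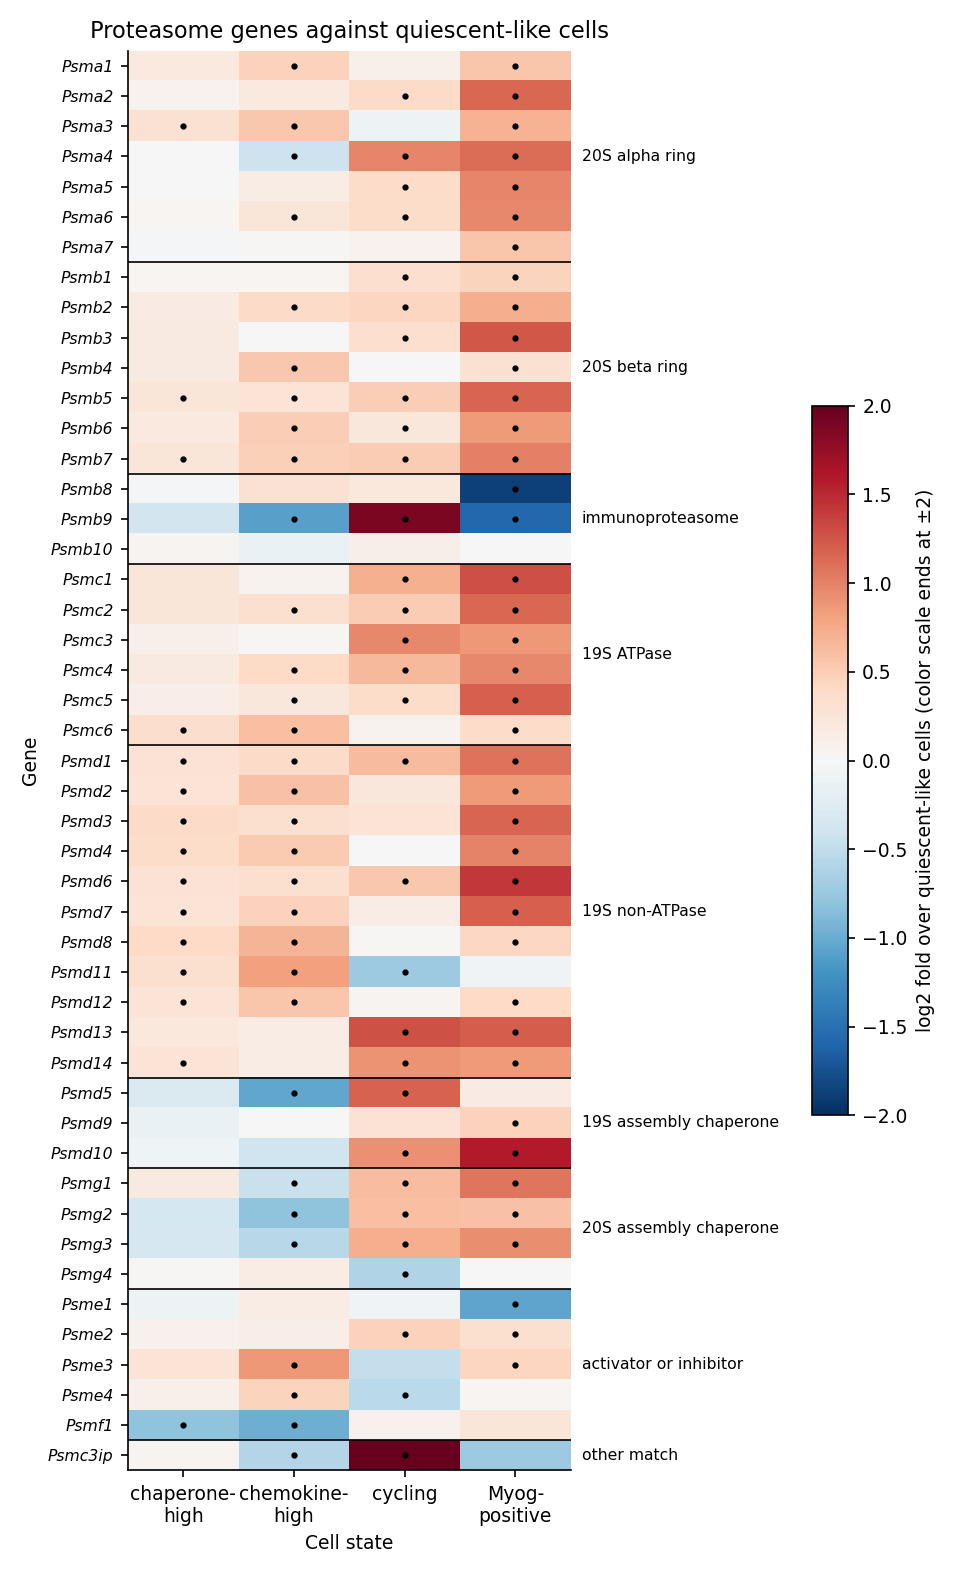
log2 fold of each of the 47 tested genes over quiescent-like cells, in 4 columns of cell states, with rows grouped by role. Red is higher and blue lower, and a black dot marks an adjusted p under 0.05 (edgeR). The Myog-positive column is red for all standard subunits but Psmd11, and Psmb8, Psmb9 and Psme1 are blue there.

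Since the standard subunits rose together, the bases upstream of their start sites are shown for those with a motif in common. Promoters from RefSeq on GRCm38.p6 were matched for 42 members, among them 25 standard subunits. In the 250 bases before the start site, on both strands, CCGGAAG, the core that ETS factors recognize, occurred in 9 of 25 standard subunits (36%) and in 7.83% of the 27025 genes with a promoter. It was noted among 13 motifs and chosen for display after the counts were seen. The antioxidant response core TGACNNNGC occurred in 4 of 25 against 11.5%, the CCAAT box in 10 of 25 against 37.5%, an interferon-stimulated response element in 2 against 3.46%, the heat shock pair GAANNTTC in 1 against 7.73%, the GC box in 3 against 11.8%, CACGTG in 1 against 6.86%, and CAGCTG in 1 against 14.7%. TTCNNNGAA, TGAGTCA, the TCF element, the heat shock triplet and the ZNF143-type element were in none of the 25, against 8.13%, 5.16%, 0.925%, 0.514% and 1.25% of all genes. GAANNTTC lies within the triplet, so these 2 patterns overlap. A match is not a binding site. The capitals below mark CCGGAAG or its reverse complement, or TGACNNNGC in *Psmb6*, in stretches of 80 bases that overlapped no annotated exon. The stretch of *Psma6* lies inside the annotated span of that gene, which runs from 55384222 to 55418454, before a RefSeq start site within the span.
Psma6 (α ring), chr12:55398663-55398742, plus strand: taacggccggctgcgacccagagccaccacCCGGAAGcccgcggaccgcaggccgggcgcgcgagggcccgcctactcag
Psmc6 (ATPase), chr14:45329694-45329773, plus strand: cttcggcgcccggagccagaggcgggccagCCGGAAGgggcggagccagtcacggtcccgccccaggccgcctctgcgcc
Psmd2 (non-ATPase), chr16:20651572-20651651, plus strand: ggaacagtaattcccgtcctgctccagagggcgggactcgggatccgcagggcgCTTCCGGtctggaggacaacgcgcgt
Psmd4 (non-ATPase), chr3:95042690-95042769, minus strand: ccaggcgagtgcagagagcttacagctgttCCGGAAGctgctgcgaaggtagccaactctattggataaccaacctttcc
Psmd11 (non-ATPase), chr11:80428535-80428614, plus strand: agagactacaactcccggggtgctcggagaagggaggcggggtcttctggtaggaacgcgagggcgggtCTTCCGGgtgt
Psmb6 (β ring), chr11:70525277-70525356, plus strand: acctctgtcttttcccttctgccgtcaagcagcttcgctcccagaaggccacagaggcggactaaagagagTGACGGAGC
Of the 9 standard subunits with CCGGAAG, 8 rose in *Myog*-positive cells, where 30 of all 31 did, and the other was *Psmd11*.

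In chemokine-high cells, 9 of 11 non-ATPase genes and the activator *Psme3* rose, and 3 of 4 assembly chaperones of the core fell. Against quiescent-like cells, 23 members were higher and 8 lower, where 26.3% of all genes were called higher and 27.1% lower, and the members' median log2 fold was 0.22 against −0.07 for all genes. Of the standard subunits 21 rose and 1 fell, with 5 of 7 β ring, 4 of 6 ATPase and 3 of 7 α ring genes rising. Without TMM, 13 members were called higher and 11 lower, where 15.3% of all 11767 genes were higher and 4697 genes lower, and 12 of the standard subunits were called higher. The members' median was then 0.01 against −0.28 for all genes. No called member changed its sign.

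*Psme3* had the largest rise. It encodes PA28γ, a nuclear activator that drives degradation without ubiquitin, and was at 18.5, 21.1, 24.4 and 21.2 CPM in quiescent-like and 31.8, 44.0, 41.9 and 38.0 CPM in chemokine-high cells. The groups did not overlap (log2 fold 0.86, standard error 0.11, adjusted p = 1.97e-07 from edgeR). *Psmd11* followed, with 219, 284, 244 and 237 CPM in chemokine-high cells, above every quiescent-like value given before (log2 fold 0.82, standard error 0.08, adjusted p = 3.71e-09 from edgeR). *Psmd8*, another lid subunit, went from 121, 126, 130 and 130 to 178, 221, 202 and 213 CPM (log2 fold 0.68). *Psme4*, which encodes the activator PA200, rose as well, from 41.2, 34.6, 33.6 and 34.2 to 48.6, 51.7, 48.4 and 47.3 CPM (log2 fold 0.45), but did not pass without TMM.

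Of the assembly chaperones of the core, *Psmg1*, *Psmg2* and *Psmg3* fell and *Psmg4* did not pass. *Psmg2* had the lowest fold of these and went from 17.98, 27.5, 24.95 and 21.4 to 12.8, 15.4, 12.3 and 11.9 CPM without overlap (log2 fold −0.81, standard error 0.13, adjusted p = 9.68e-06 from edgeR). The base chaperone *Psmd5* fell with a log2 fold of −1.04, and the core inhibitor *Psmf1* with −0.97. *Psma4* was the standard subunit that fell. It went from 82.3, 113, 136 and 112 to 66.2, 86.2, 98.8 and 79.7 CPM, where the groups overlapped but each sample was lower (log2 fold −0.41, standard error 0.10, adjusted p = 0.000653 from edgeR).

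Chaperone-high cells differed little from quiescent-like cells. In this comparison 14 members were higher and 1 lower, where 8.79% of all genes were called higher and 5.4% lower, and the members' median log2 fold was 0.17 against 0.00. All 14 were standard subunits, 10 of them among the 11 non-ATPase genes and 1 among the 7 α ring genes. *Psmd8* was at 149, 181, 162 and 175 CPM and had the largest fold (log2 0.39, standard error 0.08, adjusted p = 0.000826 from edgeR), followed by *Psmd3* (0.38) and *Psmd4* (0.36). The member that fell was *Psmf1*, from a mean of 7.55 to 4.21 CPM (log2 fold −0.81). *Psmg2*, *Psmg3* and *Psmd9* had log2 folds of −0.36, −0.33 and −0.13 and did not pass. The count moved with the setting in both directions. Without TMM 4 members were higher and 3 lower, where 3.53% of all genes were higher. In cells of 8000 to 20000 UMIs 0 passed. Without α-cdKO replicate 2, α-cdKO replicate 1 or control replicate 2, 5, 6 and 7 passed, and without control replicate 1, 18. With quiescent-like cells from 5 UMIs 23 passed, with the chaperone and chemokine thresholds at the median 25, and with clusters 34, of which 22 were higher and 12 lower. Apart from the setting without TMM, the share of all genes is not given for these settings. Their counts show only that the number of calls moved.

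Set directly against chemokine-high cells, chaperone-high cells had 5 members higher and 15 lower, where 18.7% of all genes were called higher and 18.9% lower (median log2 fold −0.09 against 0.04). *Psme3* was lower (log2 fold −0.59, standard error 0.11, adjusted p = 9.46e-05 from edgeR), as were *Psmd11* (−0.50) and *Psmb4* (−0.37). *Psmg1* (0.63), *Psmg2* (0.45) and *Psma4* (0.43) were higher. Both states were gated below the quiescent-like cells, and 5.40% of the cells lay within 1 UMI of the chaperone threshold and 9.55% within 1 UMI of the chemokine threshold. At the quiescence threshold, which sets the reference of the other comparisons, it was 29.1%. Without TMM 9 members were higher and 7 lower, where 24.8% of all 11767 genes were higher and 1546 genes lower. The members' median was then 0.01 against 0.14 for all genes. Its distance from that of all genes was −0.135 with and without TMM, a value that scaling could hardly change. Without α-cdKO replicate 2, 11 members passed in all, and the share of all genes is not given for that fit.

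In cycling cells 19 of the 31 standard subunits rose and 1 fell. Against quiescent-like cells, 27 members were higher and 3 lower, where 20.7% of all genes were called higher and 22.7% lower, with a median log2 fold of 0.37 against −0.06. Of the roles, 6 of 7 β ring, 5 of 6 ATPase, 4 of 7 α ring and 4 of 11 non-ATPase genes rose. Differences between the roles were not tested. Without TMM, 41 members were higher and 0 lower, where 39.2% of all genes were higher, and 10 of 11 non-ATPase genes and 30 of 31 standard subunits rose, so the falls and the counts by role given here hold only relative to the other genes of these cells.

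*Psmd13*, a lid subunit, was at 28.9, 27.0, 30.1 and 28.8 CPM in quiescent-like cells and at 33.0, 80.9, 71.5 and 84.6 CPM in cycling cells. The value of control replicate 1, from 16 cells, stood apart from the other 3, yet the groups did not overlap (log2 fold 1.27, standard error 0.15, adjusted p = 2.89e-08 from edgeR). *Psma4* (log2 fold 0.97) and the ATPase gene *Psmc3* (0.97) came next, and *Psma4* thus rose in cycling and fell in chemokine-high cells. *Psmd11* moved the other way. It was at 69.1, 85.1, 93.8 and 68.0 CPM in cycling cells, below every quiescent-like value (log2 fold −0.73, standard error 0.11, adjusted p = 2.80e-06 from edgeR), but it had a log2 fold of 0.34 where clusters replaced the gates. *Psmg4* (−0.61) and *Psme4* (−0.53) fell too, whereas *Psmg1* (0.62), *Psmg2* (0.61) and *Psmg3* (0.72) rose, as did the base chaperones *Psmd5* (1.18) and *Psmd10* (0.91). With clusters the log2 fold of *Psme4* was 0.16. *Psmc3ip*, which is no proteasome subunit, had the largest log2 fold of all members, 2.74.

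**Figure D3:**
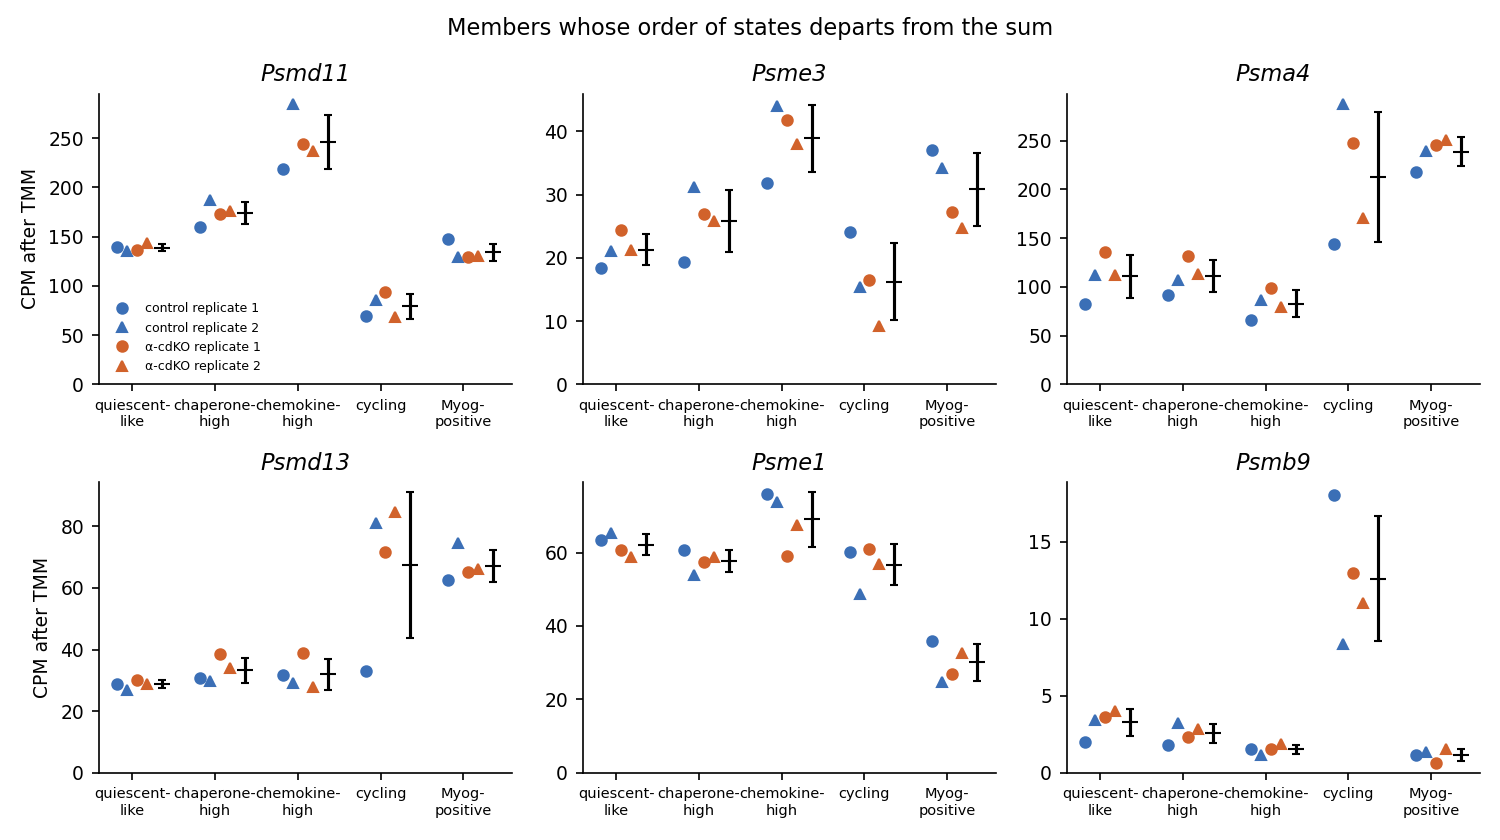
Level (CPM after TMM, linear axis from 0) of 6 members by cell state. Symbols are single samples, and bars give the mean and SD of 4 samples. Psmd11 and Psme3 are highest in chemokine-high cells, Psma4 and Psmd13 in cycling or Myog-positive cells, Psme1 is lowest in Myog-positive cells, and Psmb9 stands at 8.37 to 18.02 CPM in cycling cells against 4.04 or less elsewhere.

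The immunoproteasome genes took the smallest share of the catalytic UMIs in *Myog*-positive cells among the 5 states. The share of *Psmb8*, *Psmb9* and *Psmb10* among the UMIs of the 6 catalytic genes was 6.64%, 5.89%, 7.09% and 6.74% in quiescent-like cells, from 713 immunoproteasome UMIs in all. In *Myog*-positive cells it was 1.98% (95% exact binomial interval 0.954 to 3.61), 2.78% (1.81 to 4.07), 2.32% (1.67 to 3.13) and 1.70% (1.12 to 2.46). The groups did not overlap. The mean was 5.67% ± 1.17 in chaperone-high, 4.90% ± 1.12 in chemokine-high and 7.24% ± 1.24 in cycling cells (SD, n = 4), and all 3 ranges overlapped that of quiescent-like cells. Sample by sample, the chemokine-high share, at 6.43%, 4.39%, 4.96% and 3.84%, was below the quiescent-like share in 4 of 4 samples. UMIs of different genes are caught with different efficiency at the 3′ end, so the share serves to compare cells and is no ratio of proteins, and the intervals cover counting error only.

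*Psmb8* was at 8.69, 7.67, 7.69 and 7.35 CPM in quiescent-like cells and at 1.16, 2.01, 3.58 and 0.787 CPM in *Myog*-positive cells, where it rested on 17 UMIs in all (log2 fold −1.86, standard error 0.30, adjusted p = 4.26e-06 from edgeR). The groups did not overlap. *Psmb9* fell as well, on 9 UMIs (log2 fold −1.56, standard error 0.42), whereas *Psmb10* was at 9.17, 7.8, 11.5 and 10.6 and at 9.26, 13.4, 9.1 and 8.26 CPM (log2 fold −0.01). Per 100 UMIs of their standard counterparts, *Psmb9* went from 2.18 to 0.413 per 100 *Psmb6* UMIs and *Psmb10* from 14.03 to 6.74 per 100 *Psmb7* UMIs between quiescent-like and *Myog*-positive cells over the 4 samples. The level of *Psmb10* itself did not pass, while *Psmb7* went from 64.3, 74.1, 70.3 and 71.6 to 125, 154, 146 and 140 CPM.

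*Psmb9* was raised in cycling cells. It was at 18.02, 8.37, 13.01 and 11.03 CPM there and at 2.02, 3.42, 3.64 and 4.04 CPM in quiescent-like cells (log2 fold 1.88, standard error 0.29, adjusted p = 4.12e-06 from edgeR), on 56 UMIs in cycling cells. *Psmb8* and *Psmb10* had log2 folds of 0.21 and 0.12 and did not pass. *Tap1*, the transporter gene that shares overlapping exons with *Psmb9* on the opposite strand, rose with a log2 fold of 1.15. The endothelial genes summed to between 0 and 8.91 plain CPM in cycling cells and to between 8.69 and 12.3 in quiescent-like cells, with *Kdr*, *Emcn* and *Tie1* at 0 in the former. The immune genes summed to 23.8 in control replicate 2 and to 4.66 or less in the other cycling sums. The fibroblast genes summed to between 827 and 1366 in cycling and between 395 and 602 in quiescent-like cells. For the glial genes it was 4.66 to 25.6 and 3.72 to 5.84. The cycling level of *Psmb9* rested on 6 UMIs each in control replicates 1 and 2 and in α-cdKO replicate 2. In α-cdKO replicate 1 it rested on 38. The part of RNA from other cells in the rise of *Psmb9* was not tested. In chemokine-high cells *Psmb9* fell, to between 1.13 and 1.89 CPM (log2 fold −1.09).

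Endothelial-like cells, set aside before the comparison, show the same genes where the immunoproteasome is known to be abundant. Among their catalytic UMIs, 39.6%, 53.6%, 44.2% and 47.8% were from the immunoproteasome in the 4 samples, from 311 immunoproteasome UMIs in all. *Psmb8* was at 94.4 to 228 plain CPM in these 131 cells, at 6.19 to 8.75 in all MuSC cells and at 2.37 or less in mature-muscle cells. The level in MuSC cells was above that in mature-muscle cells in each sample. *Psmb10* had the other order, at 19.2 to 32.2 plain CPM in mature-muscle cells and 7.85 to 9.49 in all MuSC cells.

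**Figure D4:**
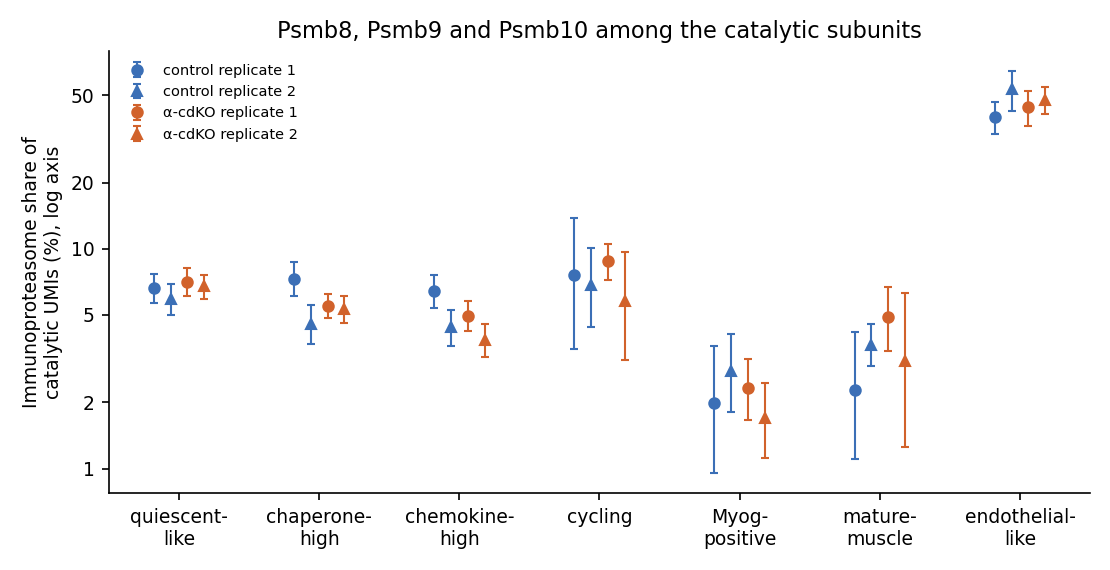
Share of Psmb8, Psmb9 and Psmb10 among the UMIs of the 6 catalytic genes (percent, log axis) in 5 MuSC states and in 2 groups of cells set aside. Symbols are samples and bars exact 95% binomial intervals. Myog-positive cells lie between 1.70% and 2.78%, below quiescent-like cells, and endothelial-like cells between 39.6% and 53.6%.

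In *Myog*-positive cells partner genes of the proteasome rose, and most antigen presentation genes fell, as *Psmb8* and *Psme1* did. The shares of all genes called in each direction, given above for each comparison, are the background for these lists. In *Myog*-positive cells, where 25.9% of all genes were higher and 31.4% lower, 6 of 8 proteasome partners were higher and 0 lower. They included *Pomp*, the maturation factor of the core, from a mean of 102 ± 9.16 to 185 ± 17.2 CPM (log2 fold 0.86), and the ubiquitin receptor *Adrm1*, also with 0.86. In chemokine-high cells 6 of 8 were higher (26.3% of all genes), and in cycling cells 3 were higher, with the deubiquitinase *Uchl5* at a log2 fold of 1.25, and 1 lower. Of 12 tested antigen presentation and interferon genes, 9 fell in *Myog*-positive cells and none rose, among them the peptide loading factor *Tapbp* (log2 fold −1.85), the class I genes *H2-D1* (−1.60) and *H2-K1* (−1.27), and *Tap1* (−1.67). In chemokine-high cells 5 rose, with *H2-K1* at 1.03, and 2 fell, where 26.3% of all genes rose and 27.1% fell.

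Of the 6 regulators, *Nfe2l1*, whose product restores proteasome genes when proteasome activity is low, rose in *Myog*-positive cells from a mean of 52.2 to 89.7 CPM (log2 fold 0.79, standard error 0.09, adjusted p = 2.53e-08 from edgeR). It also rose in chemokine-high (0.58) and chaperone-high cells (0.35) and fell in cycling cells (−0.54). *Nfe2l2*, the oxidative stress regulator, rose in chemokine-high cells (0.92) and fell in *Myog*-positive cells (−0.64), and in the latter *Sesn2* (−1.89) and *Hsf1* (−0.45) fell too, so that 1 of 6 regulators rose and 3 fell there. Of 13 genes for ubiquitin and shuttling, 3 rose and 6 fell in *Myog*-positive cells, 8 rose and 3 fell in chemokine-high cells, 4 rose and 0 fell in chaperone-high cells, and 0 rose and 7 fell in cycling cells (20.7% and 22.7% of all genes). The 3 of 13 that rose in *Myog*-positive cells were close to the 25.9% of all genes. *Sqstm1*, which hands ubiquitinated cargo to autophagy, was at a mean of 421 CPM in quiescent-like, 675 in chemokine-high, 147 in cycling and 218 in *Myog*-positive cells. Among muscle ubiquitin ligases, *Fbxo32*, the atrophy gene atrogin-1, rose in *Myog*-positive cells (log2 fold 2.86) and fell in chemokine-high (−1.21) and cycling cells (−1.46).

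The genes whose levels followed the summed standard subunits most closely were ranked over the 20 sums of sample and state. By Pearson's r on log2(CPM + 1), the first of 6359 genes was *Cox5a*, a subunit of cytochrome c oxidase, at 0.98. *Atp5g3*, *Uqcrfs1*, *Nme1*, *Uqcrq*, *Cycs*, *Atp5f1*, *Atp5b*, *Fkbp1a* and *Sec13* came next, from 0.96 to 0.94. *Cox5a* was at a mean of 165 CPM in quiescent-like, 227 in cycling and 564 in *Myog*-positive cells. The sums of a sample share a library, states repeat across samples, and the values describe these 20 sums. Among the standard subunits, r with the sum of the others had a median of 0.83, reached 0.9 in 10 of 31 and was under 0.5 in 3, and it was −0.02 for *Psmd11*, −0.73 for *Psmb8* and −0.80 for *Psme1*.

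Between genotypes, no member passed in any cell set. Over all MuSC cells of a sample, the summed standard subunits were at 2822.5 and 3191 CPM in control and 3239 and 3145 CPM in α-cdKO replicates 1 and 2, so control replicate 1 was low and the α-cdKO replicates lay on both sides of control replicate 2. By edgeR, 0 of 48 tested members passed, 0 had an unadjusted p under 0.05, and DESeq2 called 0, where 0.19% of all genes were called by edgeR. The members' median log2 fold of α-cdKO over control was 0.03 and that of all genes −0.00. The controls and the α-cdKO samples did not overlap for 20 members (41.7%), 13 higher and 7 lower in α-cdKO, where 38.1% of all genes did not overlap.

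The member with the smallest unadjusted p was *Psmc3ip*, at 4.12 and 3.92 CPM in control and 3.44 and 2.66 CPM in the α-cdKO samples (log2 fold −0.39, standard error 0.21, adjusted p = 0.760 from edgeR). *Psmb5* was at 70.9 and 81.7 CPM in control and 84.5 and 79.9 CPM in the α-cdKO samples, which overlapped (log2 fold 0.11, standard error 0.13). *Psmd11* was at 163 and 177 against 167 and 165 CPM (log2 fold −0.04, standard error 0.12).

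Within states, edgeR called 0 of 47 tested members between genotypes in quiescent-like cells (all genes 0.202%), 0 of 47 in chaperone-high (0.128%), 0 of 46 in chemokine-high (0.0982%), 0 of 43 in cycling (0.131%) and 0 of 44 in *Myog*-positive cells (0.0124%). An unadjusted p under 0.05 was found for 0 members in the first 4 and for 1 in *Myog*-positive cells, and DESeq2 called 0 in each. The 1 member was *Psmd10*, at 32.3 and 34.4 CPM in control and 21.3 and 22.4 CPM in the α-cdKO samples, which did not overlap (log2 fold −0.62, standard error 0.26, adjusted p = 0.941 from edgeR). It was picked after its values were seen. The difference between genotypes in the response of a state was tested as an interaction term in edgeR, and 0 of 47 members passed in any of the 4 states, where 0, 0, 0.034% and 0% of all genes passed in chaperone-high, chemokine-high, cycling and *Myog*-positive cells. Unadjusted, 0, 1, 1 and 2 members had a p under 0.05. With 2 samples a genotype these tests can miss differences of the sizes given.

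**Figure D5:**
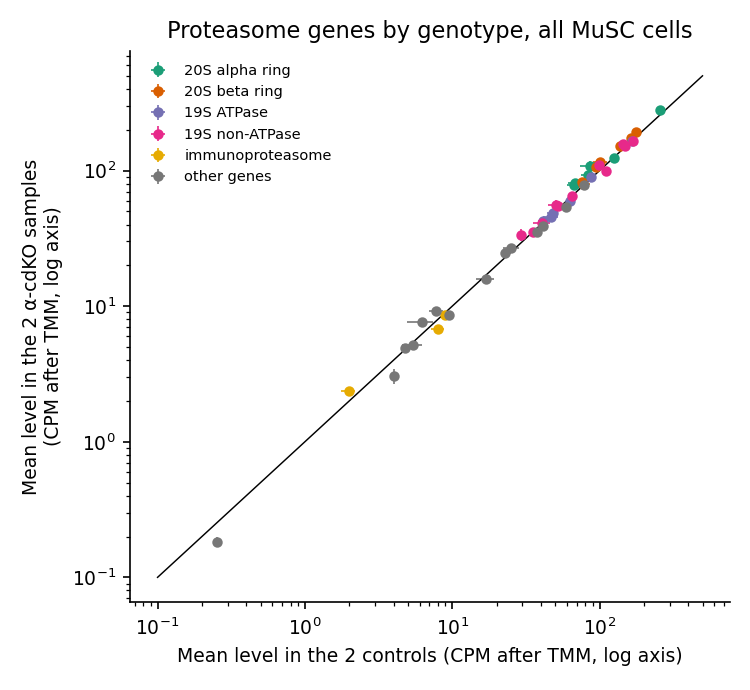
Mean level of each of 48 members (CPM after TMM, both axes log) in the 2 control samples and in the 2 α-cdKO samples over all MuSC cells. Points are genes colored by role, bars reach from the lower to the higher of the 2 samples, and the line marks equal levels. The members lie along the line, from Psma3 at the top to Psmb11 at the bottom.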

How the data were processed

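The deposited matrices hold UMI counts per gene and cell that the authors made with Cell Ranger 7.1.0 on GRCm38 from 10x 3′ libraries, with 30000 cells loaded per sample. Total UMIs were 46099310 to 74921651 per sample. Cells with at least 1000 UMIs, 400 genes and under 15% mitochondrial UMIs were kept, and no doublets were removed. States were gated on counts thinned to 2000 UMIs per cell. Counts were summed per sample and state, filtered with filterByExpr, scaled by TMM and tested with edgeR 4.0.16 (quasi-likelihood, Benjamini-Hochberg over all genes tested) in R 4.3.3, with the sample as a covariate between states. Standard errors were derived from the F statistic. DESeq2 1.42.0, other scalings and filters, Louvain clusters (Seurat 5.3.0), Scrublet scores (scanpy 1.11.5) and leaving out each sample were the alternatives, and those on depth, quiescence, *Myog* and fibroblast gates and on library totals were chosen after seeing the data. The scripts were tested on simulated data. The members and lists were chosen with earlier results of these data known. Values were named for the catalytic genes, the activators, and in each state comparison the 3 members with the largest and the 3 with the smallest log2 fold among those with at least 10 CPM, and other members were added after their values were seen. The replicates are pools of mice, so p-values between genotypes measure the spread between these pools. With the sample as a covariate, p-values between states measure how far the differences between states vary across the pools. Intervals are 95% exact binomial.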

Additional observations from a re-analysis of the deposited data

How the results depend on the processing

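Counted in both directions together, the calls for chemokine-high (31 members), cycling (30) and *Myog*-positive cells (40) stayed within 1.5 times, but without TMM the members higher in chemokine-high cells went from 23 to 13 and their median from 0.22 to 0.01. Leaving out 1 sample gave 27 to 32, 23 to 29 and 38 to 40. In chaperone-high against quiescent-like cells, 15 members passed, against 7 with library totals without TMM, 25 with chaperone-high and chemokine-high cells taken from the median up, 34 with Louvain clusters, 23 with quiescent-like cells from 5 UMIs, 0 in cells of 8000 to 20000 UMIs, and 5 to 18 without 1 sample. Against chemokine-high cells 20 passed, with 12 at that depth and 11 to 18 without 1 sample. Apart from the setting without TMM, the share of all genes is not given for these alternatives. All counts of this section show only how far the number of calls moved. The log2 ratio of the summed subunits to quiescent-like cells in plain CPM was 0.09 in chaperone-high, 0.16 in chemokine-high, 0.81 in cycling and 1.03 in *Myog*-positive cells. It was 0.28, 0.48, 1.16 and 1.18 with clusters and 0.21, 0.38, 0.28 and 0.82 after TMM. With quiescent-like cells from 5 UMIs it was 0.17, 0.26 and 1.13 in chaperone-high, chemokine-high and *Myog*-positive cells, and at 8000 to 20000 UMIs it was 0.94 in the last. The immunoproteasome share was 5.93% in quiescent-like and 5.50% in cycling cells with cells set aside from 1 UMI, and 10.3% in quiescent-like and 3.06% in *Myog*-positive cells with clusters. With clusters the sign turned for *Psmb10* in chaperone-high (−0.64), for *Psmd11* (0.34), *Psme3* (0.72) and *Psme4* (0.16) in cycling, and for *Psmd11* (1.04) and *Psmg4* (−0.22) in *Myog*-positive cells. It also turned for *Psmd11* there with quiescent-like cells from 5 UMIs (0.29) and for *Psme1* in cycling cells without TMM (0.42). The cause was not tested. Of 1139 values of single genes under an alternative, 995 kept their direction and side of the threshold. With the replicate block 0 members passed between genotypes in each of the 6 cell sets. Same-numbered samples deviated with correlations of −0.170 to 0.0571, so the numbers did not pair them, and a crossed replicate block also gave 0 members. In 3 of the samples the cycling state rests on 16 to 28 cells.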
